A study of Homo sapiens with 9 samples.

Results

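The LINC genes are long intergenic non-coding RNA genes that carry a LINC symbol followed by a number. Members were the rows annotated as lncRNA with such a symbol and a mean normalized count of at least 50 over the 9 libraries of the series. They came to 115 of 836 LINC rows, and of 30956 genes in all. The 115 rows held 114 symbols, because LINC01605 stands under 2 Ensembl identifiers. They were chosen by this measured mean, which includes the RIP values, so their levels are given as a description only.

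RNA bound to CCR4-NOT was recovered from HEK293T cells, a human embryonic kidney line, by RNA immunoprecipitation (RIP) through V5-tagged CNOT7. The tagged protein is a nuclease subunit with a substitution that impairs catalysis. The groups were 3 RIP libraries, 3 inputs from cells kept 24 h in 3 µg/mL doxycycline, and 3 inputs of cells without doxycycline, all of RNA labelled cytoplasmic and depleted of ribosomal RNA. Whether the RIP cells had doxycycline, and which 3 inputs the authors set against RIP, the labels do not say. The titles number the replicates 1 to 3, and no label ties them to separate cultures. The p-values therefore reflect only how these libraries differ, which may be technical.

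LINC symbols are given to long non-coding RNA genes that lie apart from protein-coding genes. Most such RNAs are made by RNA polymerase II, spliced and polyadenylated like mRNAs. Some stay in the nucleus and others reach the cytoplasm, where the CCR4-NOT complex trims poly(A) tails, an early step in mRNA decay.

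Reads assigned to genes came to 37140622, 40764899 and 38229122 in RIP replicates 1 to 3. The cells' labels were checked on 5 markers of HEK293T (VIM, NEFM, PAX2, LHX1, EYA1), which had 409.1 to 10933.9 normalized counts in the RIP libraries. Of 6 markers of other cell types, PTPRC, CD3E and INS were not analysed here, ALB and PECAM1 had at most 10.8, and the collagen gene COL1A1 had 322.2 to 535.0. Normalized counts are reads divided by 1 size factor per library, and they are not divided by transcript length. The input columns could not be tied to one kind of input library and were not used. The input mean beside each RIP value was derived from the RIP mean and the fold per the authors' deposited table, so it has no SD. In bulk lysates a change in the number of cells with an RNA and a change in RNA per cell cannot be told apart. Recovery without the tag was not analysed here and was not taken off.

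Sequences of the 5′ ends are shown first, to identify the RNAs on which the results turn. RefSeq's GRCh38.p14 promoter table held 80 of the 115 members. The lines below give the first 50 transcribed bases, from the start site of that table, of the called members with the highest mean counts that the table holds, 4 enriched and 4 depleted in RIP. Capitals mark TGTA, the core of the PUMILIO binding motif written as DNA. The AU-rich pentamer ATTTA was searched too and is in none of them.
LINC00205: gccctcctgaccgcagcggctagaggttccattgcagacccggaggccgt
LINC00963: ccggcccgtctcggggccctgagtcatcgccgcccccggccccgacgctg
LINC01547: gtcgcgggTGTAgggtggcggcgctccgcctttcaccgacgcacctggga
LINC02987: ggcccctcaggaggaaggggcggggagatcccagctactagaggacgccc
LINC00632: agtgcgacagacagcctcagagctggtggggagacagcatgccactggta
LINC02381: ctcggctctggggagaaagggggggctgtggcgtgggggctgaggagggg
LINC01278: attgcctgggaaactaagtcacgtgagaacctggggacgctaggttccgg
LINC02609: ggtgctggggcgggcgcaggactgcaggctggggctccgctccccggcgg

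The first 4 are enriched and the other 4 depleted. The start site used for LINC02609 lies 12 bases inside the 5′ end of the gene as RefSeq's gene table places it, while the other 7 coincide with it. Each window was scored as holding a motif or not, on the transcribed strand only, since the motifs are read in RNA. An ATTTA match and a TGTA match can share bases. TGTA was found in 6 of the 80 members (7.5%), against 7.60% of all 27305 windows of the same length and 5.27% of the windows of 12971 tested genes. By call, it was in 1 of 22 enriched members, 0 of 6 depleted ones and 5 of 52 not called. ATTTA was found in 0 of the 80, against 2.33% of all windows and 0.91% of those of tested genes. A start of C followed by 4 pyrimidines, the form of a 5′ terminal oligopyrimidine tract, was found in 4 of the 80 members (5%), in 4.04% of all windows and in 5.09% of those of tested genes. None of the 22 enriched or the 6 depleted members in the table had that start. These windows cover only the first bases of each RNA.

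The first comparison, of RIP with input, asks which LINC RNAs were recovered with CCR4-NOT. According to the authors' deposited table, RIP was enriched for 28 of the 115 members and depleted of 8 (DESeq2, adjusted p under 0.05), while 79 did not pass the test. Of all 20649 genes tested, 20.6% were enriched and 19.9% depleted. With a mean of at least 50, as the members have, 29.8% of 13591 genes were enriched and 28.7% depleted. The members' share enriched was 24.3% and their share depleted 6.96%, and the difference between these shares was not tested. The median log2 fold of the members was 0.28, with quartiles of -0.35 and 0.88, against a median of -0.079 for all tested genes and 0.0080 for those with a mean of at least 50. At least 2-fold changes were called for 18 of the 115 members upward and 8 downward per the authors' deposited table, against 10.3% and 9.63% of all tested genes. Among the 13591 genes with a mean of at least 50, they were called for 1923 upward and 1776 downward.

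**Figure D1:**
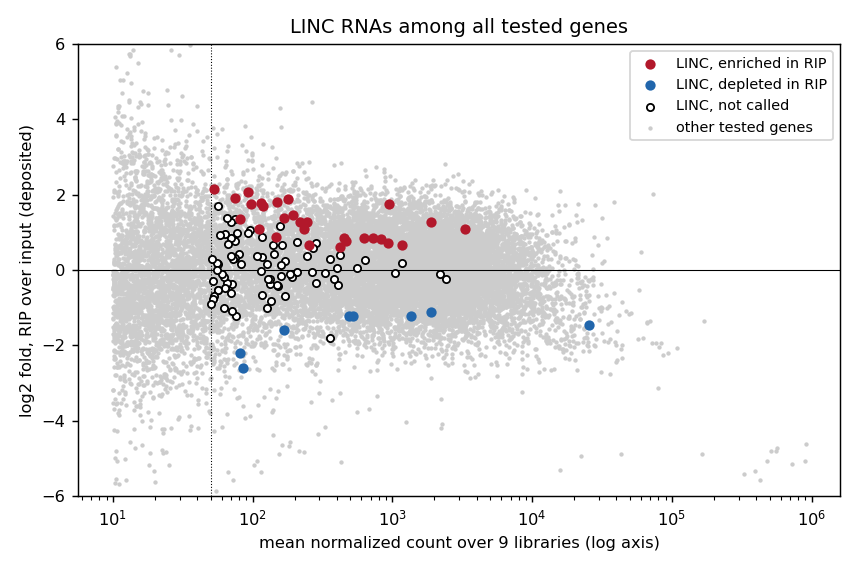
Log2 fold of RIP over input, from the authors' deposited table, against the mean normalized count over 9 libraries (log axis) for the 115 LINC members and all other tested genes with a mean of at least 10. The dotted line marks the limit of 50. The vertical axis leaves out the most extreme genes, which include LINC genes below the limit but no members. The 28 enriched members lie above 0.60 while the 8 depleted ones lie below -1.1.

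Scaling by total counts in place of the authors' size factors raised each fold by 0.50 on the log2 scale. It gave 52 enriched and 7 depleted members and a median of 0.78, beside 33.9% enriched and 9.95% depleted of all tested genes and a median of 0.42 over them. No called member could change sign under that scaling. It adds a constant to every fold, and the depleted fold nearest to no change was -1.12 (LINC02381). Of the 36 calls, 35 were kept at the deposited SE. With all 6 inputs as 1 group, 18 members were enriched and 16 depleted, beside 20% and 20.7% of all tested genes. These calls kept the deposited SE, which belongs to the fold over the compared inputs. They therefore leave out how the kinds of input differ.

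Of the 115 members, 89 had both a RIP mean and a derived mean of all 6 inputs of at least 50. A further 9 met the limit through RIP alone, 3 of them enriched (LINC01023, LINC01686 and LINC00235), and 17 through the inputs alone, 2 of them depleted (LINC01033 and LINC01976). Choosing members by this mean favours large folds among these, so their folds are given as a description. Just inside the limit lay LINC02916, LINC02542 and LINC01473, with mean counts of 50.4, 50.8 and 52.4. Just outside lay LINC01833, LINC01597 and LINC00933 at 48.5, 48.2 and 48.2. The remaining 721 LINC rows lay below the limit, and 287 of them were tested, with 15 enriched and 5 depleted, beside 2.83% and 3.02% of all 7058 tested genes below the limit.

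LINC00632 is the locus that also gives rise to the circular RNA CDR1as, known for its many sites for a microRNA, and gene counts do not separate linear from circular RNA. It lies on chromosome X, 140709759 to 140791357 (GRCh38.p14, plus strand), and overlaps no other gene in the table. LINC00632 (ENSG00000203930) had 12154.2, 13491.5 and 11535.1 normalized counts in the RIP libraries, against a derived input mean of 33926.8. All 3 RIP libraries lay below the input mean. Its log2 fold per the authors' deposited table was -1.45 (SE 0.19, DESeq2 adjusted p = 1.6e-13). This gene made up 40.9% of the members' summed mean count. Summed over all 115 members, the RIP libraries held 51131.6, 52486.1 and 49569.4 normalized counts against a derived 64258.5 in input. Without LINC00632 the sums were 38977.4, 38994.6 and 38034.2 in RIP against 30331.8 in input. With the authors' size factors the summed level thus lay below input with this gene and above it without. Under total-count scaling the mean RIP sum of all 115 members came to 71993.4, above the derived input.

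LINC02693, LINC00205 and LINC01694 were enriched and had the highest RIP counts among the enriched members. LINC02693 (ENSG00000212719, chromosome 17, 21528310 to 21551678) had 4343.2, 4874.7 and 4613.3 normalized counts in RIP, against a derived 2162.8 in input. Per the authors' deposited table its log2 fold was 1.09 (SE 0.10, DESeq2 adjusted p = 1.5e-24). LINC00205 (ENSG00000223768, chromosome 21, 45288052 to 45297354, plus strand) had 2924.7, 3419.4 and 3158.3 against 1298.8. Every RIP library of both genes lay above the input mean, by far more than the RIP libraries differed among themselves. The log2 fold of LINC00205 per the authors' deposited table was 1.29 (SE 0.13, DESeq2 adjusted p = 3e-21). LINC01694 (ENSG00000233922, chromosome 21, 45593654 to 45603056) had 2127.3, 1479.1 and 1921.3 in RIP against 551.7, a log2 fold of 1.74 (SE 0.20) per the authors' deposited table. Its RIP libraries differed more among themselves, and the lowest was still above the input mean.

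**Figure D2:**
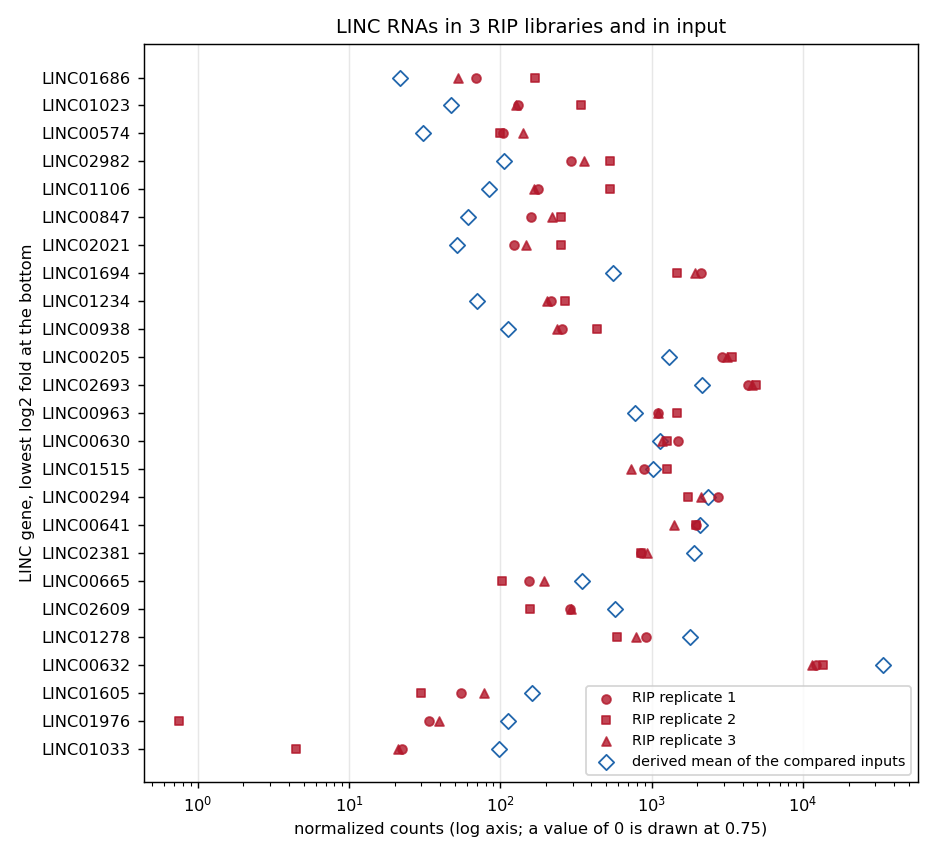
Normalized counts (log axis) of the LINC members with the highest mean counts and of those with the largest called folds, in each of the 3 RIP libraries (filled symbols) and as the derived mean of the compared inputs (open diamonds, no SD). Genes run from LINC01686 at the top (log2 fold 2.15) to LINC01033 at the bottom (-2.61), and LINC01605 is the identifier ENSG00000253414.

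Further called enrichments came from members with fewer reads, where only a large fold can pass the test. Over all 115 members, which share libraries, the fold and the mean count had a Spearman rho of 0.011. LINC01023 had 131.7, 339.0 and 126.2 normalized counts in RIP against 47.5 in input, a log2 fold of 2.07 (SE 0.52, DESeq2 adjusted p = 0.00029) per the authors' deposited table. LINC02982 had 294.0, 533.5 and 358.2 against 106.4, a log2 fold of 1.89 (SE 0.37) there. For both genes replicate 2 was the highest of the RIP libraries, and the lowest was above the input mean. Per the authors' deposited table LINC01234 and LINC00847 had log2 folds of 1.71 (SE 0.42) and 1.77 (SE 0.44), with 204.6 to 269.0 and 158.2 to 250.4 normalized counts in RIP against 70.3 and 61.2. LINC00847 overlaps the protein-coding gene ZFP62 on the opposite strand, itself enriched (log2 fold 1.86), and may share reads with it. LINC00574 had 104.3, 99.1 and 141.9 against 30.8, LINC02021 had 123.4, 250.4 and 147.4 against 51.8, and LINC00938 had 256.7, 433.7 and 236.0 against 112.3. Their log2 folds were 1.90, 1.75 and 1.46 in the same table. LINC00574 was not called with all 6 inputs (1.09, adjusted p = 0.11) at the deposited SE. LINC01686 (log2 fold 2.15, SE 0.90, DESeq2 adjusted p = 0.043), which like LINC01023 met the limit of 50 through RIP alone, had 68.7, 168.4 and 52.5 in RIP against 21.7. Without replicate 2 its fold was 1.49 and it was not called (adjusted p = 0.20), at the deposited SE, which was estimated with that replicate. The call was also lost with all 6 inputs (1.59, adjusted p = 0.16) at the same SE. The authors' shrunken fold was 1.41 (adjusted p = 0.26). It was divided by the SE of the unshrunken fold, which lowers the test score by the shrinking alone.

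LINC01106 and LINC01123 lie in a duplicated stretch of chromosome 2 and may share reads. LINC01106 had 178.0, 527.6 and 167.0 normalized counts in RIP against 83.5, a log2 fold of 1.80 (SE 0.48) per the authors' deposited table. Without replicate 2 it had 1.05 and was not called (adjusted p = 0.067) at the deposited SE, which was estimated with that replicate. LINC01123 had 298.9, 526.1 and 337.1 against 161.4, a log2 fold of 1.26 (SE 0.40) per the authors' deposited table. Both were highest in replicate 2. Further enriched members had smaller folds. LINC01128 and LINC02593, whose nearest protein-coding gene is SAMD11 on chromosome 1, had 953.1, 1057.4 and 1065.3 and 530.8, 488.1 and 595.8 normalized counts in RIP, against 575.1 and 297.1. Their log2 folds were 0.83 (SE 0.20) and 0.86 (SE 0.20) per the authors' deposited table. LINC03015 had 672.4, 1070.0 and 839.6 against 479.4, and LINC01521 had 265.8, 407.6 and 281.4 against 148.5. Every RIP library of these 4 genes lay above its input mean. LINC00680 had 156.5, 319.7 and 205.4 against 93.1, and LINC00857 had 111.0, 129.7 and 137.2 against 59.2, and neither was called with all 6 inputs. LINC01719, from the duplicated region 1q21, had 735.3, 471.7 and 713.4 against 375.0, a log2 fold of 0.77 (SE 0.25) per the authors' deposited table. LINC01145, LINC00869 and LINC01138 lie in the same region of repeated sequence and may share reads with their copies, and none of the 3 was called. The lowest called folds were 0.60 for LINC00265 (SE 0.25) and 0.67 for LINC02893 (SE 0.28) per the authors' deposited table. All 3 RIP libraries lay above the derived input mean in 27 of the 28 enriched members, with the exception of LINC03057, which had 289.8, 93.9 and 357.5 normalized counts against 95.1. The calls of LINC03057, LINC00638 and LINC00265 were lost without replicate 3, and that of LINC02893 without replicate 1, at the unchanged deposited SE. With all 6 inputs these 4 members, LINC02593 and LINC01547 were not called either. All 3 RIP libraries lay above the derived input mean in 47 of the 115 members and in 29% of all tested genes. Among the 13591 genes with a mean of at least 50, as the members have, they did so in 5303. The RIP mean of an enriched member lies above the input mean by construction.

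The 8 depleted members were LINC00632, LINC02381, LINC01278, LINC02609, LINC00665, LINC01605, LINC01976 and LINC01033. All 3 RIP libraries lay below the derived input mean in each of them, as they did in 22 of the 115 members and in 38.4% of all tested genes. Among the 13591 genes with a mean of at least 50 they did so in 5370. The RIP mean of a depleted member lies below the input mean by construction, and these shares are not of called genes. LINC02381 (ENSG00000250742, chromosome 12, 54126071 to 54132843) had 855.4, 852.4 and 936.0 normalized counts in RIP against 1914.2. The 3 libraries were close together and at less than the input mean by a log2 fold of -1.12 (SE 0.12, DESeq2 adjusted p = 1.5e-19) per the authors' deposited table. LINC01278 (ENSG00000235437, chromosome X, 63426558 to 63561095) had 917.5, 593.1 and 790.2 against 1802.2, a log2 fold of -1.23 (SE 0.19) per the authors' deposited table. LINC02609 (ENSG00000233593, chromosome 1, 90782984 to 90851650) had 289.0, 158.0 and 291.6 against 576.1, a log2 fold of -1.23 (SE 0.26) in that table. In LINC01278 and LINC02609 replicate 2 was the lowest of the RIP libraries.

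LINC00665, reported to encode a small peptide, had 154.0, 102.8 and 192.8 normalized counts in RIP against a derived 348.9. Its log2 fold per the authors' deposited table was -1.22 (SE 0.27, DESeq2 adjusted p = 3e-05). LINC00467, also reported to encode a small peptide, had 203.7, 318.9 and 185.0 against 311.8, and its fold of -0.40 (SE 0.26) per the authors' deposited table did not pass the test. LINC00467 passed without replicate 2 (-0.68, adjusted p = 0.025) and with all 6 inputs (-1.07, adjusted p = 0.00016), and it had 0.093 under total-count scaling. The deposited SE was kept in these tests.

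The 2 identifiers of LINC01605 gave different values. ENSG00000253414 had 54.7, 29.8 and 78.4 normalized counts in RIP against 162.7, a log2 fold of -1.58 (SE 0.43, DESeq2 adjusted p = 0.00086) per the authors' deposited table. ENSG00000253161 had 203.7, 44.0 and 243.0 against 170.9, a fold of -0.063 (SE 0.50) that did not pass. RefSeq has 1 gene of that symbol, so the identifiers may share reads. LINC01033 had 22.4, 4.47 and 21.2 in RIP against 97.8, a log2 fold of -2.61 (SE 0.60) per the authors' deposited table. LINC01033 and LINC01976 both met the limit of 50 through the inputs alone. LINC01976 had 41, 0 and 50 reads, or 33.95, 0 and 39.2 normalized counts, against 112.9. Its fold of -2.21 (SE 0.84, DESeq2 adjusted p = 0.023) per the authors' deposited table was not called without replicate 2 (-1.64, adjusted p = 0.11), with the shrunken fold (-1.48, adjusted p = 0.18) or under total-count scaling (-1.72, adjusted p = 0.086). Each of these used the deposited SE, which was estimated with replicate 2 and belongs to the unshrunken fold.

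Several members with high counts did not pass the test. LINC00641 had 1963.3, 1953.8 and 1395.3 normalized counts in RIP against 2077.3, and LINC00294 had 2760.7, 1742.1 and 2104.0 against 2372.6. Their log2 folds per the authors' deposited table were -0.23 (SE 0.18) and -0.11 (SE 0.17). At the deposited SE, LINC00641 was called with all 6 inputs (-0.63, adjusted p = 0.0015), and it had 0.27 under total-count scaling. Its derived mean was 3399.8 in the inputs outside the comparison, beside 2077.3 in the compared ones. LINC00294 turned to 0.39 under total-count scaling (adjusted p = 0.048). LINC00630 and LINC01515 had folds of 0.20 (SE 0.19) and -0.086 (SE 0.20) in the same table, and LINC00630 was called under total-count scaling (0.69, adjusted p = 0.00088). The RIP libraries of LINC00294 and LINC01515 lay on both sides of the input mean. LINC00662, LINC00839, LINC01138, LINC01116 and LINC00511, which are often studied in tumours, had folds of 0.26, 0.060, 0.23, 0.38 and -0.18 per the authors' deposited table and none passed. LINC00662 passed under total-count scaling (0.75, adjusted p = 0.0011).

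The share of members called differed with the reads behind them. With means of 50 to 100, 5 of 43 members were enriched and 2 depleted per the authors' deposited table, against 11.6% and 7.06% of all tested genes in that range. From 100 to 300 the counts were 12 and 1 of 43 members, against 21.8% and 13.1% of all genes. At 300 and above they were 11 and 5 of 29, against 33.37% and 33.97% of all genes. The median SE of the log2 fold was 0.62, 0.40 and 0.20 in these 3 ranges, so small folds of low members were not detectable at this depth. The median fold of the members was 0.29, 0.37 and 0.20 in them.

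Other classes of lncRNA with a mean of at least 50 were set beside the members. Of 1028 other lncRNA genes tested, 259 (25.2%) were enriched and 59 (5.74%) depleted per the authors' deposited table, with a median log2 fold of 0.33, near the members' values. Antisense RNAs had 97 enriched and 14 depleted of 312, and divergent transcripts had 34 and 4 of 144, with medians of 0.33 and 0.49. Host genes of small nucleolar RNAs ran the other way, with 1 enriched and 12 depleted of 20 and a median of -0.81. Protein-coding genes had 30.7% enriched and 30.4% depleted of 12175, with a median of -0.019. Their median SE was 0.18, against 0.46 for the LINC members. Whether LINC genes differ from other lncRNAs was not tested.

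**Figure D3:**
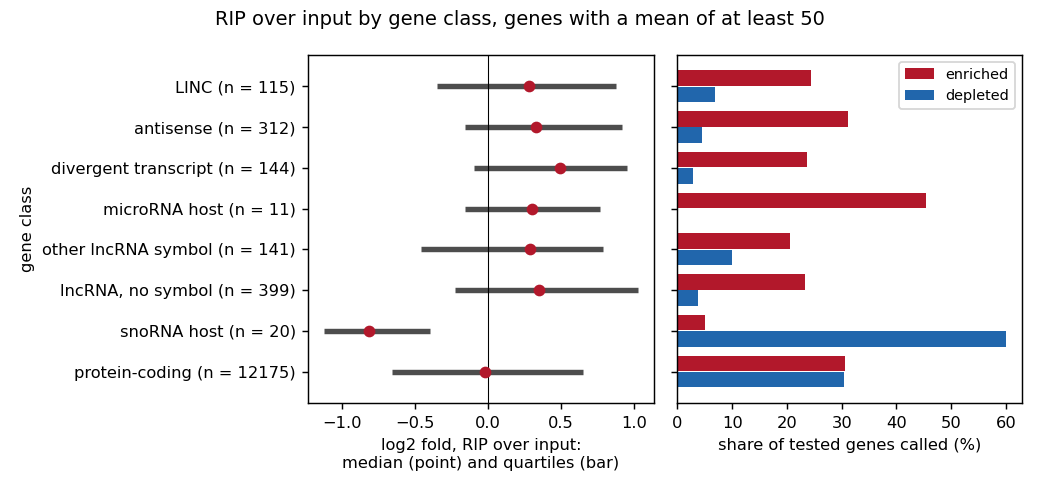
Left, median and quartiles of the log2 fold of RIP over input per the authors' deposited table by gene class, and right, the share of tested genes called enriched or depleted (%), for genes with a mean of at least 50. LINC RNAs (median 0.28) lie beside antisense and divergent RNAs (0.33 and 0.49), and snoRNA host genes lie at -0.81.

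Reference lncRNAs of known location were read in the same table. NORAD, a cytoplasmic RNA that binds PUMILIO proteins, had 31140.7, 25286.3 and 28297.4 normalized counts in RIP against 9495.4, a log2 fold of 1.57 (SE 0.13) per the authors' deposited table. MALAT1, a nuclear RNA, had 4459.9, 2779.4 and 2145.5 against 7310.1, a fold of -1.22 (SE 0.35) there. NEAT1, which builds nuclear paraspeckles, had 2314.4, 1384.5 and 1076.3 against 1511.1, a fold of 0.075 (SE 0.24) that did not pass. Both nuclear RNAs thus gave reads in RNA labelled cytoplasmic, and both were highest in RIP replicate 1. The location of the LINC RNAs themselves was not measured.

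RIP replicate 2 stood apart at low counts. It had 0 reads of 12 members, while replicates 1 and 3 had reads of all 115. LINC00472 had 241, 0 and 210 reads in replicates 1, 2 and 3, and LINC01963 had 86, 0 and 97. Other members went the other way. LINC01089 had 29.8, 221.3 and 35.3 normalized counts, LINC01355 had 19.0, 99.1 and 5.49, and LINC01116 had 47.2, 238.4 and 87.0. Replicate 2 exceeded the mean of replicates 1 and 3 more than 2-fold in 17 members and fell short of it more than 2-fold in 26, while replicates 1 and 3 differed more than 2-fold in 4. Among all genes with means of 50 to 100, 20.8% had no read in replicate 2, against 20.9% of the members in that range.

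**Figure D4:**
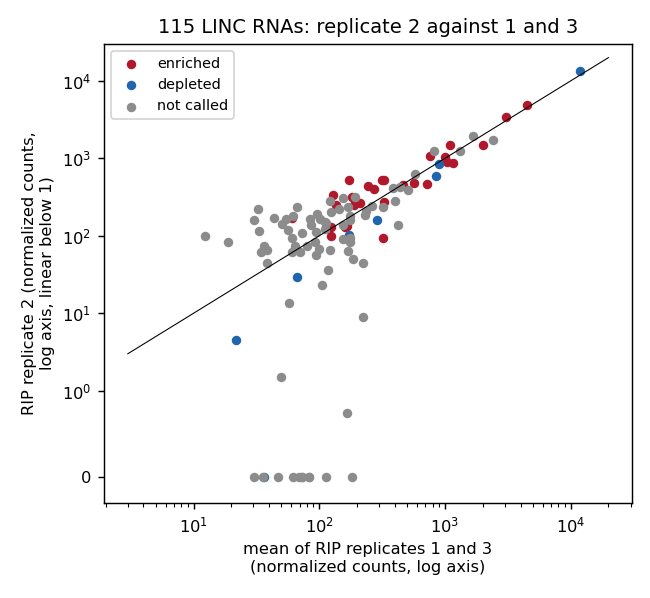
Normalized counts of the 115 LINC members in RIP replicate 2 (vertical, log axis and linear below 1) against the mean of RIP replicates 1 and 3 (log axis), with a line of equality. Members with high counts lie nearer the line than those with low counts, and 12 members lie at 0 in replicate 2.

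The median coefficient of variation over the RIP libraries was 0.31 for the members and 0.16 for all genes with a mean of at least 50. By range of mean count it was 0.61, 0.35 and 0.16 for members, against 0.48, 0.30 and 0.14 for all genes. Enriched members had 0.21, depleted members 0.31 and those not called 0.39. The largest were 1.23 for LINC01355, 1.14 for LINC01089 and 1.05 for LINC02916. LINC01089, at a log2 fold of 1.35 (SE 0.71) per the authors' deposited table, did not pass, nor did LINC01355 at -0.68 (SE 0.86). Leaving out replicate 2 gave -0.19 for LINC01089 (adjusted p = 0.89) and -2.39 for LINC01355 (adjusted p = 0.016), and LINC01089 passed without replicate 1 (1.78) or 3 (1.75). These tests kept the deposited SE, which was estimated with all 3 RIP libraries. Without replicate 2, 31 members were enriched and 12 depleted, beside 4168 and 4031 of all 20649 tested genes, and 33 of the 36 calls were kept.

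The inputs outside the comparison held more of many members. Their mean, derived from the mean over 9 libraries, exceeded that of the compared inputs more than 1.5 times in 51 of 115 members and was lower by that factor in 11. Of all genes with a mean of at least 50, 13.6% exceeded it and 13.3% were lower, and of other lncRNA genes 40.4% and 10.4%. LINC00665 had 975.6 in those inputs and 348.9 in the compared ones. LINC01963 had 852.7 against 172.5, LINC00963 had 1502.7 against 770.1, and LINC02982 went the other way with 35.4 against 106.4. LINC00963, first described in prostate cancer cells, had 1106.3, 1473.1 and 1108.4 in RIP and a log2 fold of 0.67 (SE 0.17) per the authors' deposited table. With all 6 inputs its fold fell to 0.11 and it was not called (adjusted p = 0.69) at the deposited SE. Whether these inputs differ by doxycycline cannot be told from the sources used here, and no replicate spread is available for them.

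The label intergenic was checked against RefSeq, which placed 113 of the 115 members (111 by symbol and 2 by an older symbol). Of these, 63 overlapped at least 1 other annotated gene of any kind and 15 overlapped a protein-coding gene. The authors' deposited table had 13 enriched and 3 depleted among the 50 members that overlapped none, beside 15 and 5 among the 63 that overlapped one. These are 26% and 6% of the first set and 23.8% and 7.94% of the second, where 29.8% and 28.7% of all genes with a mean of at least 50 were called. No source used here gives the strand setting of the counting, so reads of overlapping genes on opposite strands cannot be told apart. Members lay on 22 chromosomes, with 14 on chromosome 1 and 13 on chromosome 7. The genomic span had a median of 12049 bp, from 437 bp for LINC01023 to 384069 bp for LINC01572. Across 113 members, which share libraries, the fold and the span had a Spearman rho of -0.23.

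The fold of the nearest protein-coding gene was compared where it was tested. Over 87 members lying apart from that gene, the member's and the neighbour's log2 folds per the authors' deposited table had a Spearman rho of 0.0075. It was 0.66 over the 6 members that overlap that gene and 0.045 over all 93. The points share libraries, and some share a neighbour. For LINC02987 and LINC00662, which start 509 bp apart on opposite strands of chromosome 19 and overlap, the nearest protein-coding gene UQCRFS1 lay 1180351 bp or more away. LINC02987 (27793431 to 28024969) had 1217.2, 878.5 and 1109.2 normalized counts in RIP against 594.4, and LINC00662 (27790493 to 27793940) had 660.8, 634.9 and 495.4 against 499.8. Their log2 folds per the authors' deposited table were 0.85 (SE 0.19) and 0.26 (SE 0.21).

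A start site on the opposite strand within 1 kb was annotated for 19 of the 80 members in the promoter table. Of these, 6 (31.6%) were enriched and 1 (5.26%) depleted, beside 24.3% and 6.96% of all 115 members. With a mean of at least 50, the shares were 25.2% and 5.74% of other lncRNA genes and 29.8% and 28.7% of all genes. LINC00205 and POFUT2, which encodes a fucosyltransferase of the secretory pathway, start 157 bp apart. POFUT2 had 513.4, 350.2 and 523.6 normalized counts in RIP against 673.7, a log2 fold of -0.54 (SE 0.20, DESeq2 adjusted p = 0.018) per the authors' deposited table, whereas LINC00205 had 1.29 there. All RIP libraries of POFUT2 lay below its input mean and all of LINC00205 above. The 300 bases around the start of LINC00205 (chr21:45287802-45288101, plus strand) are printed because both RNAs begin there, with the 50 transcribed bases of LINC00205 in capitals.
LINC00205: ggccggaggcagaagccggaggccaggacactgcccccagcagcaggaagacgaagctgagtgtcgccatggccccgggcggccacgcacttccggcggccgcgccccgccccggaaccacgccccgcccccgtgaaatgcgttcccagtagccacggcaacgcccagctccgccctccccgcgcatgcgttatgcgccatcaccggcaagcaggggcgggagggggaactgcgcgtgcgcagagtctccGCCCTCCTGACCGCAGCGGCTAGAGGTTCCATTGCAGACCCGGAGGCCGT

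Further pairs were read in the same way. LINC01547 and SLX9 start 116 bp apart and overlap on opposite strands. They had log2 folds of 0.72 (SE 0.18) and -0.61 (SE 0.32) per the authors' deposited table, of which the first passed the test. LINC01547 had 929.9, 894.2 and 1150.8 normalized counts in RIP against 600.8. LINC00847 and the lncRNA HEIH, 661 bp apart, had 1.77 (SE 0.44) and 0.32 (SE 0.36) there, and only the first of them passed. LINC00847 also overlaps ZFP62, a protein-coding gene on the opposite strand with a log2 fold of 1.86 (DESeq2 adjusted p = 6e-18). Without a known strand setting, reads of LINC00847 and ZFP62 cannot be told apart, nor can those of LINC01547 and SLX9 where they overlap. LINC00235 and CAPN15 had 1.36 (SE 0.49) and 0.88 (SE 0.12), and both were enriched. LINC01560 and ZNF41, a zinc finger gene, had 1.05 (SE 0.56) and 1.97 (SE 0.22), of which only ZNF41 passed. LINC01560 overlaps ZNF41 on the opposite strand, so the same limit holds for their reads. The differences between the genes of a pair were not tested.

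**Figure D5:**
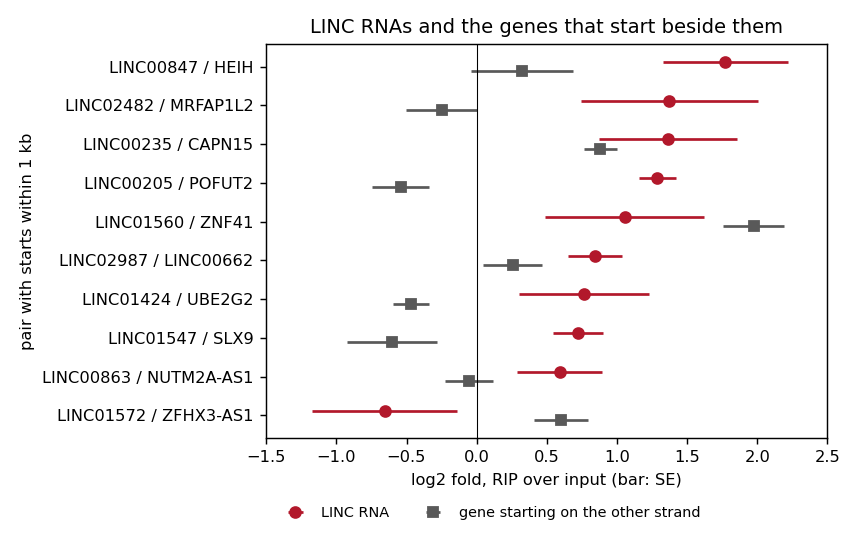
Log2 fold of RIP over input with its SE, from the authors' deposited table, for LINC members (circles) and for the gene that starts on the opposite strand within 1 kb (squares), in pairs whose partner has a mean of at least 50. LINC00205 lies at 1.29 and POFUT2 at -0.54, while LINC00235 and CAPN15 both lie above 0.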

How the data were processed

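Per the submitters' processing notes, reads were processed with STAR, featureCounts and DESeq2 on GRCh38; the notes name no versions, annotation release or strand setting. Each RIP value is a signal: the authors divided the gene's counts by the library's size factor. Each was a whole multiple of its column's smallest value within 0.01 of a read (100% of values). The log2 fold and its SE, the Wald score, the p-value and the adjusted p-value come from the authors' deposited DESeq2 results, per the file headers. The names of 3 input columns fitted either kind of input. They were left out, so the planned quasi-likelihood test of RIP against input could not be run on the recovered reads.

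Genes with an adjusted p (20649) were taken as tested, at a threshold of 0.05, and all 115 members were among them. The derived input mean is the RIP mean divided by the fold, and the mean of all 6 inputs comes from the mean over 9 libraries. Alternatives were recomputed over all tested genes with the deposited SE, a pseudocount of 0.5 and Benjamini-Hochberg adjustment (Python 3.11.15, SciPy 1.17.1). The step was tested on simulated folds whose noise had the SE used in the test. That does not cover an SE taken from another fold. The deposited SE was estimated with all 3 RIP libraries, and for the unshrunken fold over the compared inputs. Calls without 1 replicate, with all 6 inputs or with the shrunken fold therefore move with the fold alone. The floor of 3 reads came to 0.0736 to 0.0808 CPM by library. It covers counting error only, because PCR copies cannot be recognised.

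Members and lists were chosen with earlier results of these data known. Named genes were the 10 members with the highest means, up to 10 called in each direction with all RIP libraries on the called side, the 3 on each side of the limit, 11 often studied members, the 3 most variable and 3 reference RNAs. Other names were chosen after their values were seen. Of the often studied ones, LINC00461 and LINC00667 lay below the limit and LINC00473 was not analysed here. Positions came from RefSeq (GRCh38.p14), without rows on unplaced or alternate scaffolds.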

Additional observations from a re-analysis of the deposited data

How the results depend on the processing

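No paired analysis was possible because the input columns carry no replicate that can be tied to 1 kind of input. Against 28 enriched members, total-count scaling gave 52, all 6 inputs as 1 group 18, a 2-fold minimum 18, and members that overlap no other gene 13. Of all tested genes, 33.9% were enriched under total-count scaling and 20% over all 6 inputs. At a 2-fold minimum, 1923 of 13591 genes with a mean of at least 50 were. Against 8 depleted members, all 6 inputs gave 16, beside 20.7% of all tested genes, and members that overlap no other gene 3. The calls over all 6 inputs kept the deposited SE of the fold over the compared inputs. The median log2 fold of 0.28 became 0.78 under total-count scaling, 0.41 when that scaling omitted small and mitochondrial RNAs, 0.070 over all 6 inputs, 0.21 with shrunken folds, 0.27 at a mean of at least 100 and 0.22 without overlapping members. Over all tested genes the median of -0.079 became 0.42 under total-count scaling and -0.17 over all 6 inputs. For the members it was 0.37 over the 103 members with reads in every RIP library, a setting chosen after seeing the data. Leaving out 1 RIP replicate gave 29 to 33 enriched and 8 to 12 depleted members and medians of 0.26 to 0.34, with the deposited SE. Of all 20649 tested genes, 4168 to 4363 were then enriched and 4031 to 4395 depleted. LINC00294 turned to 0.39 under total-count scaling, which adds 0.50. The cause of these changes was not tested, apart from the constant that scaling adds and the smaller number of members tested. The remaining counts, at an adjusted p under 0.01, with limits of 20 and 100, with shrunken folds and under total-count scaling that omits small and mitochondrial RNAs, stayed within 1.5 times of 28 and 8. Among members with means of 50 to 100, the median SE of 0.62 limits which folds can be called.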
